A study of Rattus norvegicus with 7 samples.

Results

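The misc_RNA and ribozyme features of the rat retina hold the 7SK, 7SL, Y and vault RNAs, the RNA subunits of RNase P and RNase MRP, and telomerase RNA. Members were taken from the deposited matrix as features of these classes with an FPKM value above 0 at all 7 ages, and they were grouped by the RNA named in their symbol or description. This gave 211 members of 240 such features, in a matrix of 5491 features. The 211 were 144 of 168 7SK features, 26 of 28 7SL features, 18 of 19 Y RNA features, 13 of 13 RNase P features, both features named RNase_MRP or Rmrp and 1 vault RNA. There were also 1 telomerase RNA, 1 NRON, both pRNA and all 3 uc_338 features. Being above 0 at every age chose the members and is not a result. The same filter kept 4736 features of the whole matrix.

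Small RNA was sequenced from the retina of untreated Wistar WU rats at postnatal days 1, 3, 5, 7, 10, 15 and 21 (P1 to P21). RNA samples of retinas were pooled at each age, 3 per pool, with the day of birth counted as P0. The paper states that each pool was sequenced 2 times. The matrix holds 1 value per age, and how the runs were combined is not given in the sources used here. The differences between ages therefore have no replicate check. FPKM scales the number of mapped fragments by feature length and library size, though not in plain proportion to length in short windows.

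7SK RNA binds and holds back P-TEFb, the kinase that releases paused RNA polymerase II. 7SL RNA is the scaffold of the signal recognition particle, which brings ribosomes that make secreted and membrane proteins to the endoplasmic reticulum. Y RNAs bind the Ro60 protein and have been linked to RNA quality control and DNA replication, RNase P trims the leader of precursor tRNAs, RNase MRP acts on precursor ribosomal RNA, and telomerase RNA carries the template for telomere repeats. Most of these RNAs are made by RNA polymerase III, are present in all cell types, and have many degenerate copies in rodent genomes.

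Low FPKM values were whole multiples of the value of 1 alignment at P1 and sums of 2 such steps at P3, P5, P7, P10 and P15, and of 4 steps at P21. All low values of each library, those under 12 smallest steps, fell on these steps. The libraries thus held an estimated 297286 alignments at P1, 498288 at P3 and 414766 at P5, 595748 at P7 and 454038 at P10, then 451075 at P15 and 1362117 at P21. For the later ages these numbers hold only if every step of a library carried the same amount of signal. If not, the P10 number could lie between 200368 and 707708. The P15 number could then lie between 127499 and 774651 and the P21 number between 448413 and 1789425. With 1 step at P1 and 4 at P21, the steps do not match the 2 sequencing runs that the paper states for each age. P1 and P21 are the ages that most differences compare, and what a step stands for was not tested. The members held 3590 alignments at P1, 5151 at P3 and 4123 at P5, 6287 at P7 and 4094 at P10, then 5104 at P15 and 18590 at P21. All intervals are 95% intervals from these numbers, and they cover counting error only, since copies made by PCR are not independent and samples were pooled.

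The P3 library stood apart from the others. Its snoRNA features held 34.3% of the alignments, against 2.05% at P1 and between 4.50% at P21 and 9.39% at P7 in the rest. The miRNA share was 39.1% at P3 and between 58.1% at P7 and 74.2% at P15 in the other libraries. Results that lean on P3 are therefore given with values at the other ages beside them. The P1 library, from which most differences are taken, also stood apart. Its mitochondrial tRNA features held 0.938% of the alignments, against 2.09% at P10 to 4.58% at P3 in the rest. Its long intergenic noncoding RNA features held 23.3%, against 9.93% at P21 to 17.2% at P7.

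The tissue was checked with miRNA markers. Of 8 retina markers 7 were in the matrix, none was at 0 at any age, and Mir182 had no matching symbol. Together they held 7.03% of all alignments at P1, 10.7% at P3 and 25.5% at P5, 27.3% at P7 and 31.3% at P10, then 38.7% at P15 and 40.0% at P21, with Mir124-1 the highest by mean FPKM. Mir124-1, Mir124-2 and Mir124-3 made up most of the P21 sum, with 156228, 157132 and 155534 alignments, which may include shared reads. From P10 to P21 Mir183 went from 733716 to 448779 FPKM and Mir96 from 281916 to 89063. Mir204, Mir211 and the Mir124 loci were higher at P21 than at P10. Of 5 muscle markers 3 were matched, led in mean FPKM by Mir206, and their summed FPKM was 7439, 165251, 100176 and 4840 at P1, P3, P5 and P7, and 11665, 7905 and 5702 at P10, P15 and P21. Muscle markers were thus high at P3 and P5, where they still held 0.0635% and 0.0622% of the alignments. The 3 matched blood markers, led in mean FPKM by Mir451a, summed to 18257 FPKM at P1, 4610 at P3 and 9992 at P5, 4982 at P7 and 14434 at P10, then 8062 at P15 and 14017 at P21. The 3 matched vessel markers, led in mean FPKM by Mir145, summed to 77356, 58959, 70735 and 21511 FPKM at P1, P3, P5 and P7, and 73858, 128087 and 132175 at P10, P15 and P21. None of the matched muscle, blood and vessel markers was at 0 at any age, and Mir1, Mir133a, Mir451, Mir486 and Mir126b had no matching symbol.

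The class as a whole was a small part of each library. misc_RNA and ribozyme features held 1.25% of the alignments at P1 (1.21 to 1.29, exact binomial interval), 1.05% at P3 (1.02 to 1.08), 1.02% at P5 (0.989 to 1.05), 1.09% at P7 (1.07 to 1.12), 0.921% at P10 (0.887 to 0.955), 1.17% at P15 (1.13 to 1.22) and 1.42% at P21 (1.40 to 1.44). The share was lowest at P10 and highest at P21. The snRNA features of the same libraries held 1.24% at P1, 3.55% at P3 and 2.83% at P21.

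An FPKM value in this class depends strongly on the length of the window that the matrix lists for a gene. The value of 1 alignment rose much faster toward short windows than in proportion to length. At P1 it was 80882 FPKM for 9 bases, 16137 for 12 bases and 16.9 for 196 bases. Windows of the members ran from 9 to 407 bases with a median of 174, in genes of 77 to 428 bases, and 68 of the 211 covered at least 80% of the gene. The 6 windows under 30 bases had some of the highest FPKM values on few alignments. The 7SK window of 9 bases in ENSRNOG00000052447.1 (chromosome 15, 32756457 to 32756795, Rnor_6.0) had a mean of 390435 FPKM from 15 alignments at P1 and 5, 3, 1, 6, 3 and 2 at the later ages. Only 57 of the 211 members had a mean of at least 20 estimated alignments. How reads that map to several loci were counted is not given in the sources used here, so the division of reads between near-identical copies is uncertain for all of these RNAs.

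**Figure D1:**
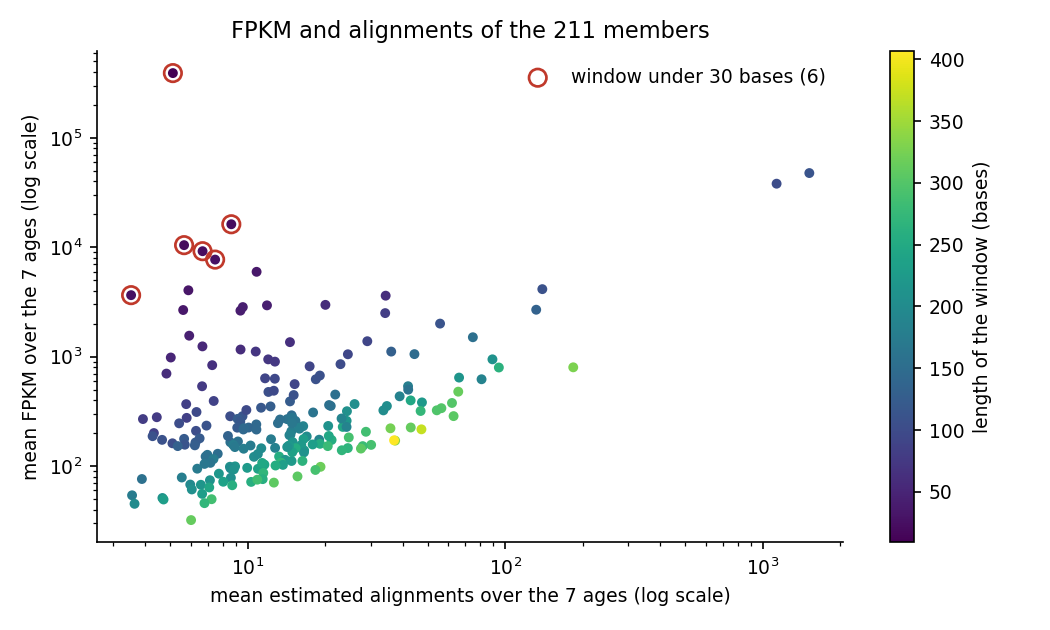
Mean FPKM over the 7 ages against mean estimated alignments for the 211 members, both on log scales, with each point coloured by the length of its window in bases and the 6 windows under 30 bases circled. The 9-base 7SK window stands at the top left with 390435 FPKM, and the pair of Y RNA genes of chromosome 4 at the right.

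**Figure D2:**
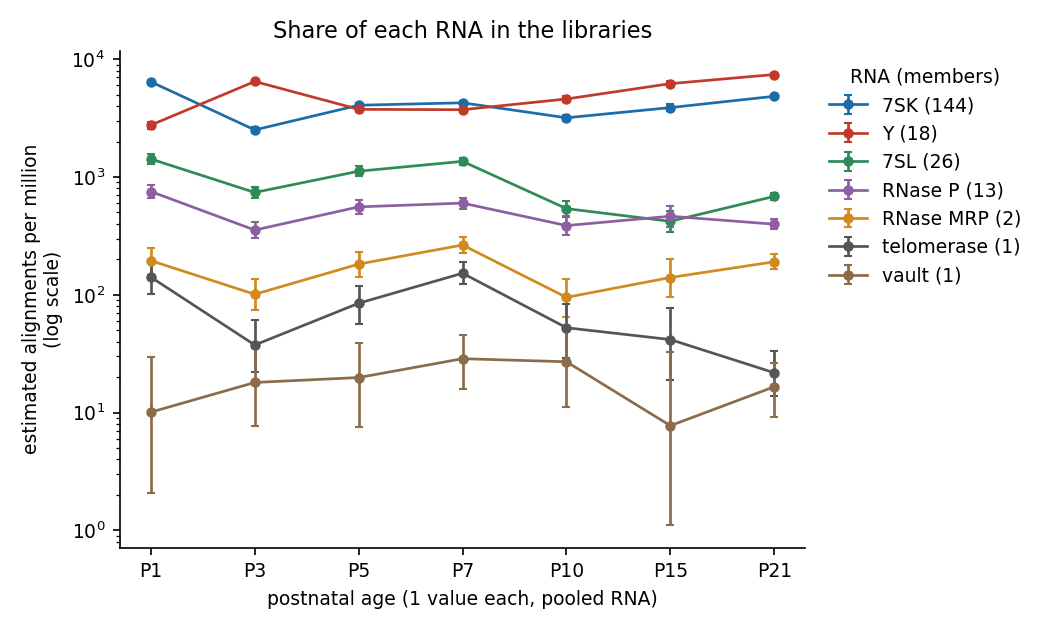
Estimated alignments per 1000000 of the library on a log scale at the 7 ages, for 7 of the RNAs, with 95% exact binomial intervals as bars. The Y RNAs stand at 2762 at P1 and 7421 at P21, and 7SK at 6435 and 4848.

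Y RNAs had the largest rise of a summed FPKM level among the RNAs with more than 1 member. The summed FPKM of the 18 Y RNA genes was 42909 at P1, 168215 at P3 and 72646 at P5, 63578 at P7 and 103891 at P10, then 123782 at P15 and 184743 at P21. The level was low at P1, high at P3, lower at P5 and P7, and then higher at each later age. From P1 to P21 the sum rose by 2.11 on the log2(FPKM + 1) scale (1.99 to 2.22), which is 4.31-fold. Per 1000000 alignments the Y RNAs went from 2762 at P1 (2576 to 2957) to 7421 at P21 (7252 to 7591), a log2 difference of 1.43. Scaling each library to its miRNA total gave 1.48 and put the highest level at P3 rather than P21. The order of the FPKM levels was P1, P7, P5, P10, P15, P3 and P21, and every neighbour in this order differed by more than counting error. The smallest step was 0.14 between P3 and P21 (0.07 to 0.20), so nearly all of the rise over P1 was already there in the P3 library. In alignments per 1000000 the intervals of P7 (3574 to 3891) and P5 (3562 to 3959) overlapped. Those of P15 (5882 to 6545) and P3 (6241 to 6715) overlapped too.

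A pair of Y RNA genes on chromosome 4 carried most of this signal. The gene ENSRNOG00000060430.1, on the reverse strand from 77463050 to 77463161 and 112 bases long, was at 16838, 86293, 33301 and 27048 FPKM at P1, P3, P5 and P7, and 46006, 53913 and 70187 at P10, P15 and P21. It was highest at P3 and lowest at P1, and it rose 4.17-fold from P1 to P21 (log2 difference 2.06, 1.90 to 2.22), while from P3 to P21 it fell by 0.30. The gene ENSRNOG00000056608.1, on the forward strand from 77459794 to 77459895 and 102 bases long, was at 6529 FPKM at P1, 61023 at P3 and 22035 at P5, 25616 at P7 and 31077 at P10, then 38706 at P15 and 81717 at P21. It was lowest at P1 and highest at P21, and it rose 12.5-fold (log2 difference 3.65, 3.38 to 3.91). In alignments per 1000000 the differences were smaller, 1.33 for the 112-base gene (1.17 to 1.48) and 2.91 for the 102-base gene (2.65 to 3.18), and both together went from 1642 at P1 to 6137 at P21. Scaled to the miRNA total they were 1.43 and 3.02. The genes lie on opposite strands with 3154 bases between them, and each is covered over its whole length. Together they held 59.4% of the Y RNA alignments at P1 and between 76.7% at P15 and 88.4% at P3 at the other ages.

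The balance between both genes moved with age. The ratio of the 102-base gene to the 112-base gene was 0.388 at P1 (0.315 to 0.477), 0.707 at P3 (0.653 to 0.766), 0.662 at P5 (0.584 to 0.750), 0.947 at P7 (0.863 to 1.04), 0.675 at P10 (0.598 to 0.763), 0.718 at P15 (0.633 to 0.814) and 1.16 at P21 (1.11 to 1.22). The 112-base gene was above the 102-base gene at P1, P3, P5, P10 and P15, the interval held equality at P7, and the 102-base gene was above at P21. In estimated alignments, which are not corrected for length, the 102-base gene stayed below, with 119 against 369 at P1, 819 against 1039 at P7 and 4112 against 4247 at P21. The crossing at P21 is therefore one of FPKM. A ratio within a library does not depend on the scaling between libraries. The P3 level of this pair moved together with the high snoRNA share and the high muscle markers of that library. At P5 the muscle markers held 0.0622% of the alignments, against 0.0635% at P3, while the pair was at 55336 FPKM against 147316. The part of snoRNA share and muscle markers in the result was not tested.

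The other 16 Y RNA genes together were below the pair at every age. The gap was small at P1, where the pair summed to 23367 FPKM and the others held 40.6% of the Y RNA alignments. Summed, they were at 19542, 20899, 17311 and 10914 FPKM at P1, P3, P5 and P7, and 26808, 31163 and 32839 at P10, P15 and P21, a rise of 0.75 (0.54 to 0.96). Scaled to the miRNA total the difference was 0.12, with an interval of -0.08 to 0.33 that holds 0, and in alignments per 1000000 it was 0.20 (0.02 to 0.37). As a sum, their P3 level did not stand above P1 beyond counting error (log2 difference 0.10, -0.17 to 0.37). The high P3 level of the Y RNA sum thus came mainly from the chromosome 4 pair, though single genes among the other 16 also moved. Another gene, ENSRNOG00000058623.1 on chromosome 1 (86776293 to 86776404), was at 1323 FPKM at P1, 3368 at P3 and 3097 at P5, 2469 at P7 and 6054 at P10, then 4522 at P15 and 8159 at P21. It was lowest at P1 and highest at P21, a rise of 2.62 (2.07 to 3.18). From P1 to P3 it rose by 1.35 (0.70 to 1.99).

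In all, 12 of the 18 Y RNA genes were at least 2-fold higher at P21 than at P1, beside 23.6% of all 4736 features above 0 at every age. Only 1 was at least 2-fold lower, beside 32.6% of all features. That gene was ENSRNOG00000059912.1 on chromosome 3 (39945841 to 39945947), named after its values were seen. It was at 7123, 1248, 1864 and 521 FPKM at P1, P3, P5 and P7, and 3247, 1982 and 1528 at P10, P15 and P21. Its highest level was thus that of P1, and it fell by 2.22 (log2 difference -2.22, -2.79 to -1.65). The median log2 difference of the 18 genes was 1.35, beside -0.23 over all features. Among the 14 Y RNA genes covered over at least 80% of their length 11 were at least 2-fold higher and 0 at least 2-fold lower. The highest level of 7 of the 18 genes was at P15 and that of another 7 at P21, beside 12.2% and 15.9% of all features with their highest level at these ages.

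**Figure D3:**
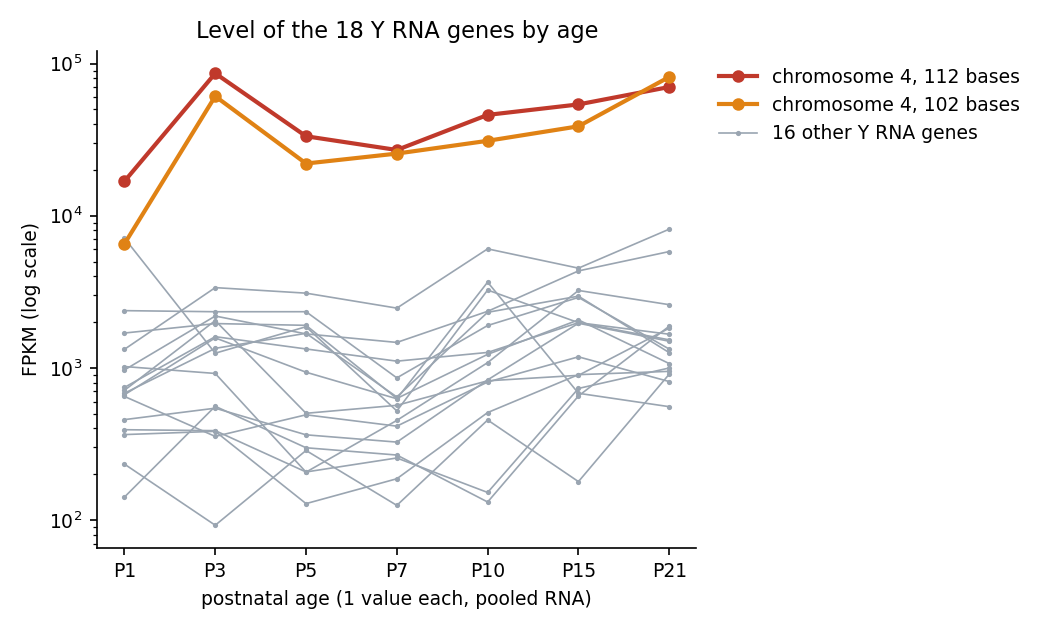
FPKM of each of the 18 Y RNA genes on a log scale at the 7 ages, 1 line per gene and 1 value per age from pooled RNA. The lines of the pair on chromosome 4 go from 16838 and 6529 FPKM at P1 to 70187 and 81717 at P21, with a peak at P3, and run above the other 16 from P3 on, while at P1 the chromosome 3 gene at 7123 lies between them.

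7SK RNA, the inhibitor of P-TEFb, has the largest number of members, and its total depends on how short windows are treated. The summed FPKM of the 144 7SK genes was 1294560 at P1, 508593 at P3 and 310660 at P5, 148523 at P7 and 584152 at P10, then 313754 at P15 and 109885 at P21. The sum was highest at P1 and fell by 3.56 to P21 (log2 difference -3.56, -4.85 to -2.27), but the 9-base window of chromosome 15 alone made up 93.5% of the FPKM of all 144 at P1 and 40.6% at P21. No neighbour in the order of these levels differed beyond counting error. Per 1000000 alignments the 144 genes were at 6435 at P1, 2512 at P3 and 4848 at P21. In that measure P3 was the lowest age, and only P1 lay above P21. The 140 windows of at least 30 bases summed to 69183, 49717, 59128 and 53405 FPKM at P1, P3, P5 and P7, and 57070, 47193 and 57402 at P10, P15 and P21. With them the fall shrank to 0.27 (log2 difference -0.27, -0.47 to -0.06). With P3 in place of P1 the difference of these windows was 0.21, with an interval of -0.05 to 0.46 that holds 0. Against P1 the direction turned for the 32 genes covered over at least 80% of their length, an alternative added after the data were seen. These were at 6927 FPKM at P1, 4962 at P3 and 5757 at P5, 5397 at P7 and 4503 at P10, then 5879 at P15 and 11093 at P21. Their level at P21 stood above every other age, and the rise from P1 was 0.68 (0.54 to 0.82). Per 1000000 alignments this subset was at 2149 at P1 (1986 to 2323) and 2112 at P21 (2023 to 2205), which overlap, so its rise is one of FPKM and not of the share of alignments.

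Of the other 7SK windows with a high mean FPKM, that of ENSRNOG00000058346.1 on chromosome 17 (50959560 to 50959808) spans 22 bases and was at 4009 FPKM at P1, 21818 at P7 and 6046 at P21. Its P21 level did not differ from P1 beyond counting error (log2 difference 0.59, -1.71 to 2.90). The window of ENSRNOG00000059829.1 on chromosome 10 (20434382 to 20434468) spans 26 bases and was at 5054 FPKM at P1, 15375 at P10 and 1130 at P21 (log2 difference -2.16, -4.70 to 0.38). Both rest on few alignments, with a mean of 6.68 and 7.47.

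Of the 144 7SK genes 50 were at least 2-fold higher at P21 and 34 at least 2-fold lower, or 34.7% and 23.6%, beside 23.6% and 32.6% of all features. Their median log2 difference was 0.21. Genes covered over at least 80% of their length were at least 2-fold higher in 17 of 32 and at least 2-fold lower in 3 of 32, or 53.1% and 9.38%, with a median of 1.21. The 112 genes with a shorter window were higher in 33 and lower in 31, or 29.5% and 27.7%, with a median of -0.16. The first set had a median of 17.6 mean alignments and the second 9.26, so depth differs between them, and its part in the difference was not tested.

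The deepest 7SK gene was also one of the largest rises. ENSRNOG00000058555.1 is a reverse-strand gene (chromosome 8, 85480292 to 85480622), and its window covers 99.1% of the gene. Its level was 96.6, 408, 822 and 1079 FPKM at P1, P3, P5 and P7, and 283, 754 and 2155 at P10, P15 and P21, from 12 alignments at P1 and 739 at P21. It was lowest at P1, went up to P7, dropped at P10 and was highest at P21. The rise from P1 to P21 was 22.3-fold (log2 difference 4.47, 3.65 to 5.28), or 3.72 in alignments per 1000000 (2.89 to 4.54), and from P7 to P10 the level fell by 1.93 (log2 difference -1.93, -2.52 to -1.34). This gene and the shared reads of its copies cannot be told apart in these values.

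Among the 57 members with a mean of at least 20 alignments, the 5 largest rises from P1 to P21 were those of 4 7SK genes and of the 102-base Y RNA gene. Beside the chromosome 8 gene these included ENSRNOG00000059354.1 on chromosome 2 (170631620 to 170631931), at 109 FPKM at P1, 115 at P3 and 219 at P5, 452 at P7 and 254 at P10, then 27.9 at P15 and 3176 at P21. Its P21 level stood far above all other ages, a rise of 4.85 (3.70 to 6.004), while P15 rested on 2 alignments. ENSRNOG00000060289.1 on chromosome X (23467547 to 23467864) was at 53.2, 56.2, 231 and 241 FPKM at P1, P3, P5 and P7, and 85.2, 400 and 938 at P10, P15 and P21. It rose by 4.12 (2.97 to 5.27), with a level at P10 below those of P5, P7 and P15. ENSRNOG00000052426.1 on chromosome 7 (109352263 to 109352581) was at 72.8 FPKM at P1, 57.4 at P3 and 269 at P5, 345 at P7 and 45.1 at P10, then 130 at P15 and 677 at P21. It rose by 3.20 (1.77 to 4.63), and it too was lower at P10 than at P7. In alignments per 1000000 the differences were 4.07, 3.35 and 2.40 for the genes of chromosomes 2, X and 7. From P7 to P10 the log2 difference was -1.49 for the chromosome X gene (-2.64 to -0.34), -2.91 for the chromosome 7 gene (-5.05 to -0.77) and -0.83 for the chromosome 2 gene, whose interval of -1.82 to 0.17 holds 0.

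The 5 largest falls among the same 57 members were those of 7SK genes. ENSRNOG00000058934.1 on chromosome 5 (25546110 to 25546434) was at 1248, 368, 418 and 159 FPKM at P1, P3, P5 and P7, and 150, 185 and 54.7 at P10, P15 and P21. It fell by 4.49 (log2 difference -4.49, -5.58 to -3.39), most of it by P7. ENSRNOG00000061200.1 on chromosome 15 (85171562 to 85171838) was at 2858 FPKM at P1, 1013 at P3 and 809 at P5, 436 at P7 and 1297 at P10, then 1111 at P15 and 270 at P21. It was highest at P1 with a second high level at P10 and P15 (P21 minus P1 -3.40, -4.18 to -2.62). ENSRNOG00000058145.1 on chromosome 1 (84797290 to 84797629), covered over 92.6% of its length, was at 1494, 308, 569 and 264 FPKM at P1, P3, P5 and P7, and 295, 262 and 161 at P10, P15 and P21. Its level dropped by P3, rose by 0.89 to P5 (0.27 to 1.505) and fell again by P7, and P21 lay below P1 (log2 difference -3.20, -3.71 to -2.70). ENSRNOG00000060080.1 on chromosome 14 (20066846 to 20067161) went from 471 FPKM at P1 to 69.7 at P21 (log2 difference -2.74, -3.68 to -1.80). Against its P3 level of 114 FPKM the difference was -0.71, with an interval of -1.99 to 0.58 that holds 0. ENSRNOG00000054252.1 on chromosome 5 (113399577 to 113399906) went from 808 FPKM at P1 to 139 at P21, with its lowest level of 119 at P7 (log2 difference -2.53, -3.29 to -1.76). In bulk tissue fewer cells of a type and less RNA per cell cannot be told apart.

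The limit of 20 alignments is a mean over all ages, so a member can pass it through the age where it is high. The chromosome 2 and chromosome 7 genes among the rises passed only through P21, with a mean of 14.1 and 11.1 alignments without it. The 2 chromosome 5 genes among the falls passed only through P1, with a mean of 17.0 and 19.5 without it. A mean of at least 20 over P3 to P15, which uses neither of the ages compared, was added after the data were seen. With it the 5 largest rises were those of the chromosome 8 and chromosome X 7SK genes, the 102-base Y RNA gene, the chromosome 1 Y RNA gene that rose by 2.62 and a 7SK gene of chromosome 18. That gene, ENSRNOG00000056247.1 (40542094 to 40542431), went from 62.2 FPKM at P1 to 404 at P21 (log2 difference 2.68, 1.66 to 3.70). The 5 largest falls were then those of the 7SK genes of chromosomes 1, 14 and 15, the Y RNA gene of chromosome 3 and telomerase RNA.

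**Figure D4:**
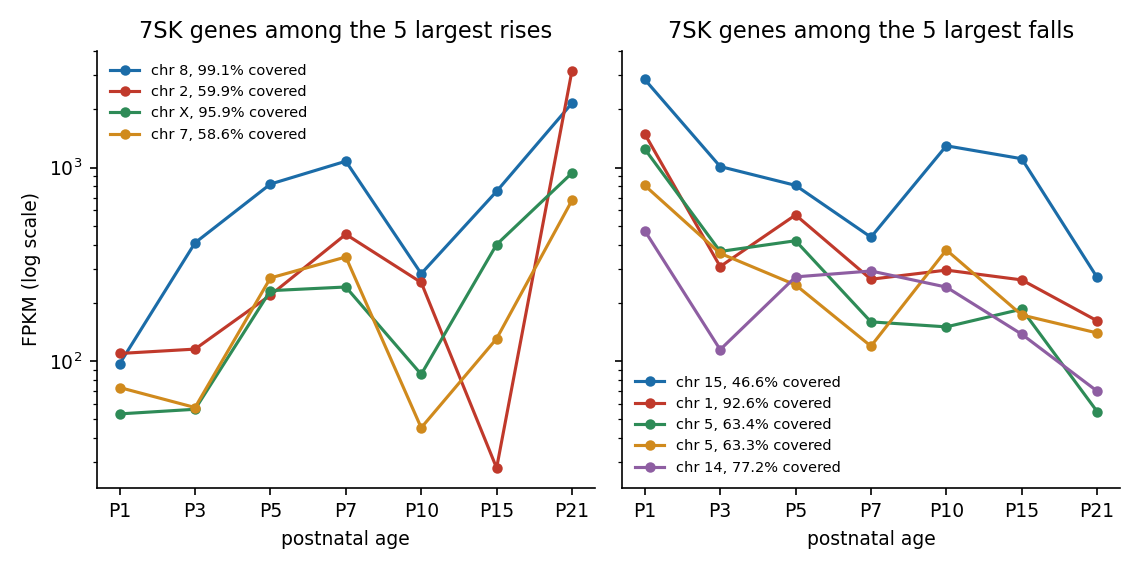
FPKM on a log scale at the 7 ages for the 7SK genes among the 5 largest rises (left, 4 genes) and the 5 largest falls (right, 5 genes) of members that averaged at least 20 estimated alignments. The chromosome 8 gene goes from 96.6 FPKM at P1 to 2155 at P21, and the chromosome 5 gene that starts at 1248 FPKM goes to 54.7.

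7SL RNA, the scaffold of the signal recognition particle, was lowest at P10 and P15. The 26 7SL genes summed to 48129 FPKM at P1, 39881 at P3 and 47784 at P5, 38757 at P7 and 12321 at P10, then 14071 at P15 and 26668 at P21. Levels from P1 to P7 were thus above those at P10 and P15, with P21 between them. From P7 to P10 the sum fell by 1.65 (log2 difference -1.65, -3.02 to -0.29), and from P1 to P21 it fell by 0.85 (log2 difference -0.85, -1.65 to -0.05). The interval of this last difference held 0 with median-of-ratios scaling, with TMM scaling, against P3 and for the 9 genes covered over at least 80% of their length, where the difference was -0.16 (-0.43 to 0.11). The fall was found with windows of at least 30 bases (-0.56, -0.79 to -0.33), scaled to the miRNA total (-1.48, -2.28 to -0.67), in alignments per 1000000 (-1.05, -1.23 to -0.88) and without the member with the highest mean FPKM (-2.005, -2.91 to -1.10). Windows of at least 30 bases gave 7752, 6146, 7446 and 7483 FPKM at P1, P3, P5 and P7, and 3700, 3074 and 5255 at P10, P15 and P21. With these the fall from P7 to P10 was 1.02 (log2 difference -1.02, -1.31 to -0.72) and the rise from P15 to P21 was 0.77 (0.34 to 1.20). The lowest level of 9 of the 26 genes was at P10 and that of 14 at P15, beside 12.4% and 23.5% of all features with their lowest level at these ages. Only 1 gene was at least 2-fold higher at P21 than at P1 and 10 were at least 2-fold lower, or 3.85% and 38.5%, beside 23.6% and 32.6% of all features. The median log2 difference was -0.70. Of the 5 with a mean of at least 20 alignments over P3 to P15, 3 had an interval above 0 and 0 below 0, beside 32.0% and 43.1% of the 1680 features with that depth, with a median of 0.53.

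Rn7sl1 (ENSRNOG00000061096.1), the 7SL gene with a symbol of its own, is a forward-strand gene (chromosome 6, 91456908 to 91457207) and is covered over its whole length. It was at 226 FPKM at P1, 487 at P3 and 435 at P5, 386 at P7 and 126 at P10, then 205 at P15 and 503 at P21. Its low ages were P1, P10 and P15. It was the gene that was at least 2-fold higher at P21 (log2 difference 1.15, 0.53 to 1.77), and from P7 to P10 it fell by 1.60 (log2 difference -1.60, -2.55 to -0.65). Scaled to the miRNA total its P21 difference was 0.53, with an interval of -0.10 to 1.15 that holds 0. Without that scaling the difference between P21 and P3 was 0.05 (-0.45 to 0.54). The whole 7SL gene ENSRNOG00000058083.1, which lies 223620 bases away on the other strand and was named after its values were seen, was at 281, 523, 422 and 612 FPKM at P1, P3, P5 and P7, and 185, 163 and 457 at P10, P15 and P21. It was low at the same ages, and reads shared by these copies cannot be assigned to 1 of them.

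The 3 7SL genes with the highest mean FPKM differed among themselves. ENSRNOG00000059449.1 on chromosome 10 (59151684 to 59151984) was at 590.2 FPKM at P1, 740.2 at P3 and 854 at P5, 797 at P7 and 470.3 at P10, then 207 at P15 and 850.1 at P21. Its P15 level was the low one, and its P21 level was above P1 by 0.53 (0.01 to 1.04), a direction that turned to -0.10 when scaled to the miRNA total. The window of 20 bases in ENSRNOG00000058684.1 on chromosome 3 (32761859 to 32762151) was at 10583 FPKM at P1, 35473 at P5, 2706 at P15 and 17314 at P21 (P21 minus P1 0.71, -0.91 to 2.33). The window of 21 bases in ENSRNOG00000058179.1 on chromosome 5 (74897005 to 74897291) was at 29794 FPKM at P1, 2837 at P10 and 4099 at P21, a fall of 2.86 (log2 difference -2.86, -4.55 to -1.18). These short windows rested on a mean of 8.63 and 5.66 alignments.

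RNase P RNA, the catalytic subunit that trims precursor tRNAs, showed no change from P1 to P21 beyond counting error in its FPKM sum. The 13 RNase P genes summed to 3789, 3125, 3226 and 2662 FPKM at P1, P3, P5 and P7, and 2687, 3216 and 4053 at P10, P15 and P21. The highest level was 1.52 times the lowest, and no neighbour in their order differed beyond counting error. P7 and P10 lay below P21 by more than counting error (log2 difference -0.61, -0.92 to -0.29, and -0.59, -1.06 to -0.12). The log2 difference between P21 and P1 was 0.10 (-0.28 to 0.48), and scaled to the miRNA total it was -0.53 (-0.91 to -0.15), so the direction depends on the scaling. It was also below 0 for the 8 genes covered over at least 80% of their length (-0.43, -0.71 to -0.14). Per 1000000 alignments the RNase P RNAs went from 753 at P1 (658 to 859) to 398 at P21 (360 to 440). Of the 13 genes 2 were at least 2-fold higher at P21 and 2 at least 2-fold lower, or 15.4% each way, beside 23.6% and 32.6% of all features, with a median of 0.03. Of the 4 with a mean of at least 20 alignments over P3 to P15, 0 were at least 2-fold higher and 2 at least 2-fold lower. This stands beside 27.3% and 35.2% of the 1680 features with that depth, and the median of the 4 was -0.97. By counting error 1 of them had an interval above 0 and 2 below 0, beside 32.0% and 43.1% of these features.

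The RNase P genes differed in pattern. ENSRNOG00000056133.1 on chromosome 12 (10655472 to 10655727), covered over 96.5% of its length, was at 677 FPKM at P1, 411 at P3 and 460 at P5, 335 at P7 and 265 at P10, then 385 at P15 and 257 at P21. It was highest at P1 and fell by 1.39 (log2 difference -1.39, -1.96 to -0.82). ENSRNOG00000060794.1 on chromosome 5 (35315038 to 35315298), where the window covers 28.0% of the gene, was at 1096, 945, 618 and 235 FPKM at P1, P3, P5 and P7, and 714, 905 and 1794 at P10, P15 and P21. It was lowest at P7, and its P21 level did not differ from P1 beyond counting error (0.71, -0.31 to 1.73). ENSRNOG00000054248.1 on chromosome 20 (20175318 to 20175585) was at 379 FPKM at P1, 658 at P5, 129 at P15 and 386 at P21 (P21 minus P1 0.03, -0.86 to 0.92).

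By name, 2 genes were grouped as RNase MRP RNA, which is related to RNase P RNA and active on precursor ribosomal RNA. Rmrp may be an RNase P RNA gene, as given below, so the sum may mix 2 RNAs. The sum of both genes was 559 FPKM at P1, 522 at P3 and 693 at P5, 867 at P7 and 403 at P10, then 539 at P15 and 916 at P21. The level was high at P7 and P21 and low at P10. From P7 to P10 it fell by 1.10 (log2 difference -1.10, -1.67 to -0.54), and from P1 to P21 it rose by 0.71 (0.29 to 1.14), a rise that was 0.086 when scaled to the miRNA total and -0.032 in alignments per 1000000. The gene ENSRNOG00000057527.1 on the reverse strand of chromosome 5 (58994682 to 58994953) was at 249, 319, 365 and 381 FPKM at P1, P3, P5 and P7, and 187, 261 and 472 at P10, P15 and P21. It was lowest at P10 and highest at P21 (log2 difference from P1 0.92, 0.28 to 1.57), though scaled to the miRNA total the interval held 0. Rmrp (ENSRNOG00000054493.1), a reverse-strand gene (chromosome 15, 27738972 to 27739269), was at 311 FPKM at P1, 202 at P3 and 328 at P5, 486 at P7 and 216 at P10, then 277 at P15 and 444 at P21. Its highest level was that of P7, and P21 did not differ from P1 beyond counting error (0.51, -0.05 to 1.07). In RefSeq's gene table for GRCr8, Rmrp is a synonym of Rpph1, the RNase P RNA gene, so the RNA of this locus is uncertain. The RNase P sums do not include this locus.

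Telomerase RNA, the template subunit of the enzyme that lengthens telomeres, was lower at the late ages. Terc (ENSRNOG00000051777.1), a forward-strand gene (chromosome 2, 116432691 to 116433110), is covered over 96.2% of its length. It was at 257, 120.4, 203 and 317 FPKM at P1, P3, P5 and P7, and 141, 101 and 65.9 at P10, P15 and P21. The level was highest at P7 and P1, low at P3 and lowest at P21. From P7 to P10 it fell by 1.16 (log2 difference -1.16, -1.92 to -0.41), and from P1 to P21 it fell by 1.95 (log2 difference -1.95, -2.69 to -1.21), while against P3 the interval of -1.77 to 0.05 held 0. Per 1000000 alignments Terc was at 141 at P1 (102 to 191), 153 at P7 (123 to 189) and 21.8 at P21 (13.9 to 33.7).

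The vault RNA, part of the vault ribonucleoprotein, was too shallow to order the ages. ENSRNOG00000052373.1, on chromosome 18 from 29647838 to 29647981, was at 85.4 FPKM at P1, 269 at P3 and 221 at P5, 278 at P7 and 337 at P10, then 87.4 at P15 and 233 at P21. P1 and P15 were low, with 3 alignments each, and no library had more than 23. The log2 difference between P21 and P1 was 1.44 (-0.32 to 3.19), and a difference was not detectable at this depth.

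The remaining members come from other noncoding RNA families. NRON (ENSRNOG00000058888.1), a noncoding repressor of the transcription factor NFAT, lies on chromosome 3 (12870473 to 12870842) and was at 409, 181, 252 and 468 FPKM at P1, P3, P5 and P7, and 79.1, 211 and 128 at P10, P15 and P21. It was highest at P7 and P1 and lowest at P10, and it fell by 1.67 from P1 to P21 (log2 difference -1.67, -2.80 to -0.54). The 2 features named pRNA, on chromosome 1 (38428386 to 38428472) and chromosome 14 (46679005 to 46679091), summed to 9378 FPKM at P1, 5311 at P3 and 6077 at P5, 3698 at P7 and 8324 at P10, then 4918 at P15 and 3006 at P21. Their sum was highest at P1 and P10 and fell by 1.64 (log2 difference -1.64, -2.44 to -0.85). The fall was 2.48 for the chromosome 1 feature (log2 difference -2.48, -3.45 to -1.50), and the interval of the chromosome 14 feature held 0 (-0.92, -2.17 to 0.32). Against P3 the intervals of NRON and of the pRNA sum held 0.

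The uc_338 features, named after an ultraconserved element, did not move together. The feature of chromosome 10 (105784020 to 105784200) was at 3358 FPKM at P1, 508 at P5 and 363 at P21, a fall of 3.21 (log2 difference -3.21, -4.47 to -1.94). That of chromosome 3 (15415226 to 15415384) was at 1203, 299, 1025 and 662 FPKM at P1, P3, P5 and P7, and 533, 324 and 358 at P10, P15 and P21 (P21 minus P1 -1.74, -2.80 to -0.69). In contrast the feature of chromosome 18 (36888381 to 36888536) was at 32.5 FPKM at P1, from 1 alignment, 535 at P15 and 262 at P21 (log2 difference 2.97, 0.14 to 5.80). When scaled to the miRNA total the interval of this last difference held 0.

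Over all 211 members, 67 were at least 2-fold higher at P21 than at P1, which is 31.8%, beside 23.6% of all 4736 features above 0 at every age. At least 2-fold lower were 52, or 24.6%, beside 32.6% of all features. The median log2 difference was 0.12 for the members and -0.23 for all features, so the members leaned to higher levels at P21 and all features to lower ones. Scaled to the miRNA total, 44 members were higher and 84 lower, beside 15.2% and 46.5% of all features. This scaling shifts all features of a library alike. Lower levels were then more frequent than higher ones in both, so whether the members lean up or down depends on the scaling. With P3 in place of P1, an alternative added after the data were seen, 63 were higher and 34 lower, beside 19.0% and 26.2% of all features. By counting error, 55 members had an interval above 0 and 48 below 0, beside 18.8% and 32.0% of all features, while the intervals of 108 held 0. Of the 57 members with a mean of at least 20 alignments 23 were higher and 15 lower, beside 28.4% and 33.5% of the 1961 features with that depth. By counting error 30 of the 57 had an interval above 0 and 18 below 0, beside 32.9% and 41.1% of these features. With the mean taken over P3 to P15, 11 of 34 members were higher and 8 lower, beside 27.3% and 35.2% of 1680 features. Intervals above 0 were then found for 18 of the 34 and below 0 for 11, beside 32.0% and 43.1% of these features.

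**Figure D5:**
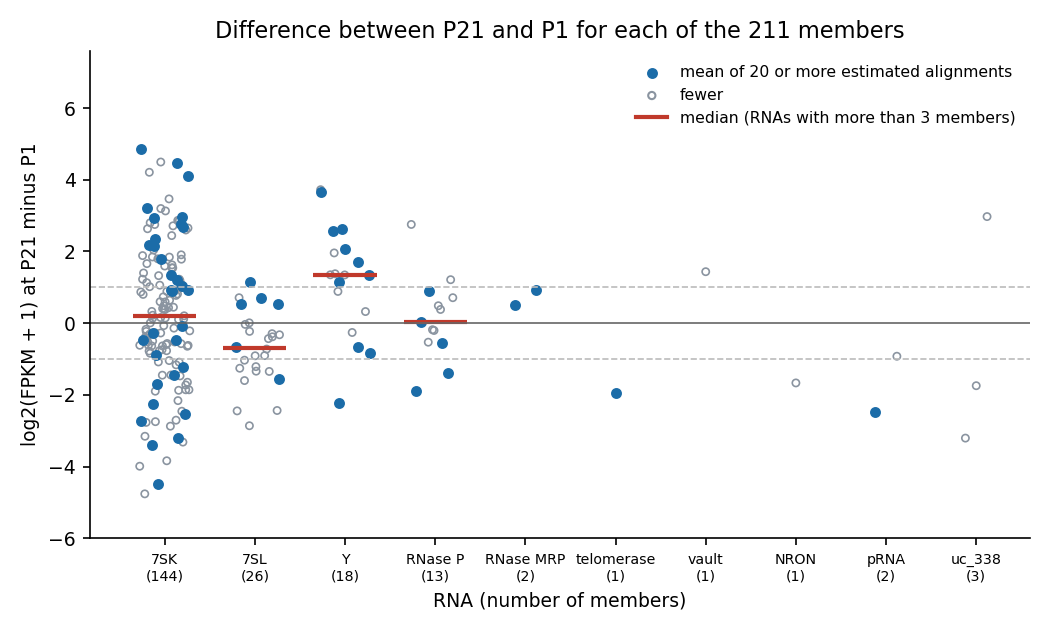
Difference of log2(FPKM + 1) between P21 and P1 for each of the 211 members, by RNA, with filled points for a mean of at least 20 estimated alignments, red lines for medians and dashed lines at a fold of 2. The median is 1.35 for the Y RNAs, 0.21 for 7SK, 0.03 for RNase P and -0.70 for 7SL.

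The members had their highest level at P21 more often than all features did, and at P1 about as often. It was at P21 for 54 members and at P1 for 52, or 25.6% and 24.6%, beside 15.9% and 25.5% of all features. P3 was the age of the highest level for 12 members, or 5.69%, beside 12.1% of all features. The lowest level was at P15 for 47 members and at P10 for 33, or 22.3% and 15.6%, beside 23.5% and 12.4% of all features.

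Other RNAs made by RNA polymerase III were counted in the same way. Of 47 U6 snRNA features, the spliceosomal RNA made by this polymerase, 25 were at least 2-fold higher at P21 and 15 at least 2-fold lower, with a median of 1.88, beside 23.6% and 32.6% of all features. Their summed FPKM was lower at P21 (log2 difference -1.11, -1.70 to -0.52), while per 1000000 alignments they went from 1453 at P1 to 2932 at P21. For U6atac it was 4 higher and 1 lower of 8, and for 5S ribosomal RNA 11 higher and 17 lower of 66, with a higher sum at P21 (0.51, 0.04 to 0.99). Together these 121 features were higher in 40 and lower in 33, or 33.1% and 27.3%, with a median of 0.19, while the log2 difference of their sum was -0.33 (-0.71 to 0.06). The 113 features of U1, U2, U4, U5, U7, U11, U12 and U4atac, made by RNA polymerase II, were higher in 69 and lower in 14, or 61.1% and 12.4%, with a median of 1.46. Their summed FPKM was lower at P21 (log2 difference -0.74, -1.11 to -0.37), with lower sums for U1 (-1.79) and U2 (-1.57), higher ones for U5 (3.18), U7 (2.39) and U12 (0.59), and intervals that held 0 for U4, U11 and U4atac. Per 1000000 alignments the 113 features went from 10384 at P1 to 24434 at P21.

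The threshold for membership was a level above 0 at every age, and the members nearest to it rested on single alignments. The lowest minimum among the members was 6.78 FPKM, that of the 7SK gene ENSRNOG00000053355.1 on chromosome 7 (62014290 to 62014598) at P3, followed by 8.61 FPKM at P10 for the 7SK gene ENSRNOG00000058031.1 on chromosome 1 (173139486 to 173139809). The RNase P gene ENSRNOG00000054444.1 on chromosome 20 (47553946 to 47554224) had a minimum of 9.27 FPKM at P5. Each of these minima was 1 alignment. Just outside were 7SK windows with a high mean that were listed at 0 at 1 age. The window of 9 bases in ENSRNOG00000059782.1 on chromosome 7 (5659777 to 5660072) was listed at 0 at P3 and at 1940000 FPKM, or 24 alignments, at P1. The window of 12 bases in ENSRNOG00000056824.1 on chromosome 19 (22568560 to 22568919) was listed at 0 at P10 and had 149136 FPKM at P15. The window of 23 bases in ENSRNOG00000056568.1 on chromosome X (116101823 to 116102154) was listed at 0 at P5 and had 24747 FPKM at P1. Of the 29 features left out, 22 were listed at 0 at 1 age and 7 at more than 1, and 24 windows of 7SK, 2 of 7SL, 1 Y RNA, the CPEB3 ribozyme and the GRIK4 element made up the 29.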

How the data were processed

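Rat retinal RNA samples were pooled and their small RNA was read on the Ion Torrent PGM, and the authors mapped trimmed reads to Ensembl noncoding RNAs and deposited FPKM values from Cufflinks and Cuffdiff 2.2.1.3 on Rnor_6.0, as the submitters' processing notes name them. The deposited fold changes, test statistics, p-values, q-values and significance calls of the 21 pairs of ages were not used. Each feature had the same FPKM in every pair. The design allowed for counts, but with FPKM and 1 value per age no test was run. Levels were compared as log2(FPKM + 1).

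Estimated alignments came from the steps of low values, within 0.004 of a step, and the procedure was tested on simulated data. The simulated steps of a library carried equal signal, so the simulation could not check that assumption. Intervals of shares are exact binomial.

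Members named were those with a symbol of their own, the 3 with the highest mean FPKM of each RNA, the 5 largest rises and 5 largest falls at a mean of at least 20 alignments, and those next to the threshold. The members and lists were chosen with earlier results of these data known. Alternatives were pseudocounts of 0.1 and 10, folds of 1.5 and 4, scaling to the total of the 571 miRNA features, factors by median of ratios or TMM from the 507 miRNA features above 0 at every age, alignments per 1000000, medians over members, filters on members, and leaving out each age. Against P21 these scalings shift P1 by 0.63, -0.08 and -0.15 on the log2 scale. Windows of at least 30 bases or 80% of the gene, the depth filters and P3 in place of P1 were added after seeing the data. Python 3.11.15, numpy 2.4.6, pandas 2.3.3, scipy 1.17.1 and matplotlib 3.10.9 were used.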

Additional observations from a re-analysis of the deposited data

How the results depend on the processing

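Among differences, counts and ages of highest or lowest levels of the 5 main RNAs and of all members, 131 of the alternative values stayed near the reported one, 45 moved and 3 reversed. Reversed means a change of sign where the reported interval excluded 0. For the single members and smaller RNAs 320 stayed near it, 52 moved and 5 reversed. Scaled to the miRNA total, the P21 minus P1 difference was 1.48 for Y, -0.53 for RNase P and 0.086 for RNase MRP, with 44 members higher and 84 lower. The highest level then fell on day 3 for Y, day 1 for RNase P and day 7 for RNase MRP, and the lowest on day 10 for RNase P. TMM scaling gave 2.26 for Y, a highest level on day 7 for 7SL, day 15 for RNase P and day 7 for RNase MRP, and a lowest on day 10 for RNase P. Median-of-ratios scaling put the highest level on day 7 for 7SL and RNase MRP, and the lowest on day 10 for RNase P. In alignments per 1000000 the difference was -0.41 for 7SK, 1.43 for Y, -0.92 for RNase P and, reversed, -0.032 for RNase MRP. The reported RNase P difference of 0.10, whose interval held 0, thus changed sign with the miRNA total and in alignments per 1000000. The chromosome 10 7SL gene reversed to -0.10 with the miRNA total and to -0.20 in alignments per 1000000. The cause was not tested for any of these.

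As the median over members the difference was 0.21 for 7SK, reversed, and 1.35 for Y. Without the member with the highest mean FPKM it was -0.37 for 7SK, -2.005 for 7SL and, with a change of sign, -0.25 for RNase P. Alternatives added after seeing the data gave -0.27 for 7SK with windows of at least 30 bases, and with windows of at least 80% of the gene 0.68 for 7SK, -0.16 for 7SL, 2.42 for Y, -0.43 for RNase P and 2.97 for uc_338. There 7SK and uc_338 reversed, RNase P changed sign, and the 7SL interval came to hold 0. The cause was not tested. With P3 in place of P1 the difference was -2.21 for 7SK and 0.14 for Y, it reversed to -0.30 for the 112-base Y RNA gene and to 0.26 for the chromosome 3 uc_338 feature, and 34 members were lower. For single members and smaller RNAs whose reported interval held 0, 11 of 63 alternative values changed sign. Among these P3 gave -0.21 for the vault RNA and 0.74 for the chromosome 14 pRNA, and the miRNA total gave -0.11 for Rmrp. At a fold of 4, 33 members were higher and 23 lower, beside 11.3% and 15.6% of all features. At a mean of at least 20 alignments it was 23 and 15 of 57, and with that mean over P3 to P15 11 and 8 of 34. Fewer members can pass these last limits by construction.

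Leaving out each age in turn gave a highest level on days 1 to 10 for 7SK, 1 to 5 for 7SL, 3 to 21 for Y, 1 to 21 for RNase P and 7 to 21 for RNase MRP. The lowest level was on days 7 to 21 for 7SK, 10 to 15 for 7SL, 1 to 7 for Y, 7 to 10 for RNase P and 3 to 10 for RNase MRP. No paired analysis was possible because the matrix holds 1 value per age and no result comes from a test. Depth limits single members: 154 of the 211 had a mean under 20 estimated alignments, and for 99 of these the interval held 0. Alignment numbers after P1 rest on the assumption of equal steps, and reads shared between copies cannot be assigned.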

Other observations

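2 features of the class with a name of their own were listed at 0 at P10 and are not among the members. The GRIK4 element, ENSRNOG00000052484.1 on the reverse strand of chromosome 8 (46806467 to 46806525), was at 1615, 1786, 3878 and 8026 FPKM at P1, P3, P5 and P7, and 0, 2160 and 25919 at P10, P15 and P21, from 222 alignments at P21. Its highest level was that of P21, with a second high level at P7. The CPEB3 ribozyme, ENSRNOG00000059763.1 on the reverse strand of chromosome 1 (255785486 to 255785562), was at 9652 FPKM at P1, 7588 at P3 and 2037 at P5, 7320 at P7 and 0 at P10, then 1499 at P15 and 399 at P21, from 20 alignments at P1. Its levels at P1, P3 and P7 were the high ones.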
